A study of Ovis aries with 16 samples.

Results

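Liver-dominant long non-coding RNA (lncRNA) loci were described in sheep, in libraries of small RNA from 2 tissues, liver and muscle. The loci were chosen by their deposited values in the 2 tissues: the mean over 8 livers had to be at least 5 and at least 4 times the mean over 8 muscles. Of 2973 lncRNA loci in the table, 20 met both conditions, and 4 of these (LOC114110111, LOC101110918, LOC105607806 and LOC114118468) were left out by name, which leaves 16 loci. The animals were female Suffolk sheep, 4 in each treatment. Control animals (labelled C) were born to ewes injected with corn oil, and BPA animals to ewes injected with 0.5 mg per kg per day of bisphenol A, a plastics monomer with oestrogen-like activity, in the same oil. Injections were given under the skin from day 30 to day 90 of gestation. The offspring were sampled at about 21 months, after fasting for 48 hours. They had received a pair of prostaglandin F2-alpha injections, 11 days apart, the last 24 hours before sampling, so both groups share the fast and the synchronized cycle. The liver piece was the left lobe tip and the muscle, of the thigh, was vastus lateralis, both from the same 8 animals. Each library is 1 tissue of 1 animal and is named here by its sheep number.

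lncRNAs are transcripts without a recognised protein product, and many are made in 1 or a few tissues. They are longer than the RNA fragments that a small RNA library captures. Reads assigned to a lncRNA locus in such a library can therefore come from pieces of the long transcript or from a small RNA that is encoded inside it. Where another gene overlaps the locus, pieces of its transcript are a further possible source. Many lncRNA genes carry snoRNAs or miRNAs in their introns, and such small RNAs are cut out of the host transcript.

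The sheep loci are known by number. Of the 16, 11 were found in the RefSeq gene table of assembly ARS-UI_Ramb_v3.0, all as lncRNA, with locus lengths from 2715 to 160443 nt on 10 chromosomes. The other 5 (LOC105608205, LOC114117615, LOC114114530, LOC105604609 and LOC105616153) had no entry and are named only. The build behind the deposited values is not given in the sources used here, so positions are described by neighbouring genes. LOC105603426 on chromosome 19 overlaps BHLHE40, a transcription factor gene of the circadian clock, and ITPR1, which encodes a calcium channel of the endoplasmic reticulum. LOC114110055 on chromosome 1 lies next to PLSCR4, a phospholipid scramblase gene. LOC101112291 lies on the X chromosome, between the protein-coding genes CHIC1 and ZCCHC13. LOC101112520 carries the symbol KIAA1586 in the table and lies between ZNF451 and BEND6 on chromosome 20. LOC114118756 on chromosome 16, next to the semaphorin gene SEMA5A, holds a snoRNA gene. LOC114116893 on chromosome 11 overlaps the phosphatase gene SSH2 and holds an snRNA gene, and LOC105606290, also on chromosome 11, holds a gene listed as ncRNA. LOC114118340 on chromosome 15 lies between MS4A13 and the condensin gene NCAPD3, and LOC105610254 on chromosome 10 lies between the proteasome assembly gene POMP and the VEGF receptor gene FLT1. LOC114112973 on chromosome 2 overlaps LOC121818625, a protein-coding gene known by number. LOC105605322 is placed on the Y chromosome by this table, although all 8 animals are labelled female and every liver had reads for it.

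Small RNA genes lay inside 3 of the 11 loci found, or 27.3%, against 29 of 55 (52.7%) of the other found loci with a liver mean of at least 5. Protein-coding genes overlapped 3 of the 11 (27.3%) and 19 of those 55 (34.5%). No miRNA gene lay inside any of the 11. None of the 16 loci shared its values with another row of the table, although 802 rows with reads did so. The highest liver mean among those 802 was 0.879.

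Depth differed between the groups and bears on each value below. Reads assigned to lncRNA loci numbered 18344 to 45323 per control liver and 102095 to 284321 per BPA liver, and in muscle 463009 to 579608 per control and 629329 to 1085241 per BPA library. The make-up of the liver libraries differed too. Reads assigned to snRNA loci went the other way, with 29981 to 58486 per control liver and 877 to 3865 per BPA liver. The part of this make-up in the values below was not tested. Deposited values are read counts over a size factor of the library, so that 1 read made a value of 1.29 to 1.67 in a control liver but 0.321 to 0.843 in a BPA liver. Of the tissue markers, 2 of 4 liver miRNAs were in the miRNA table, with a summed level of 45135 to 61597 in control livers, 40787 to 66110 in BPA livers and 1311 to 2028 over all muscles. The 1 of 7 muscle miRNAs present, MIR133, was at 115 to 717 in control livers, 122 to 574 in BPA livers and 244661 to 373488 in muscles. For fibroblasts and smooth muscle 2 of 4 were present, summing to 26709 to 40182 in control and 27447 to 52968 in BPA livers. Leukocyte and endothelial lists had 1 of 3 present each, MIR150 at 199 to 549 and 231 to 493, and MIR221 at 345 to 730 and 435 to 703. None of the 3 erythroid miRNAs was in the table. Fewer cells of a type and less RNA per cell cannot be told apart in whole tissue.

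The levels in the tissues follow from how the loci were chosen and are given as a description. LOC105603426 had the highest liver mean, 119.1 against 6.92 in muscle, and LOC101112291 was at 75.02 against 10.2. The ratio of liver to muscle means ran from 4.24 (LOC105604609) to 45.0 (LOC114116893), with a median of 10.2. Muscle values were small. Over the 8 muscles together a locus had between 1 and 85 reads, 3 loci had fewer than 10, and 10 loci were at 0 in at least 1 muscle. In 4 loci (LOC105603426, LOC101112520, LOC114116893 and LOC114112973) every liver lay above every muscle, which held for 4.03% of the 124 lncRNA loci with a liver mean of at least 5. In the other 12 some livers lay within the range of the muscles.

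Around the chosen limits the loci formed no gap. Just above a liver mean of 5 were LOC105616153 (5.01), LOC105610254 (5.25) and LOC105605322 (11.0), and just below it LOC114114526 (4.70), LOC114109099 (4.64) and LOC105603092 (4.41). Just above a ratio of 4 were LOC105604609 (4.24), LOC105606290 (6.66) and LOC114118756 (6.85), and just below it LOC105609312 (3.95), LOC114114068 (3.91) and LOC114110041 (3.48). LOC105616153 is therefore a locus of very few reads, 32 over 8 livers and 1 over 8 muscles.

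**Figure D1:**
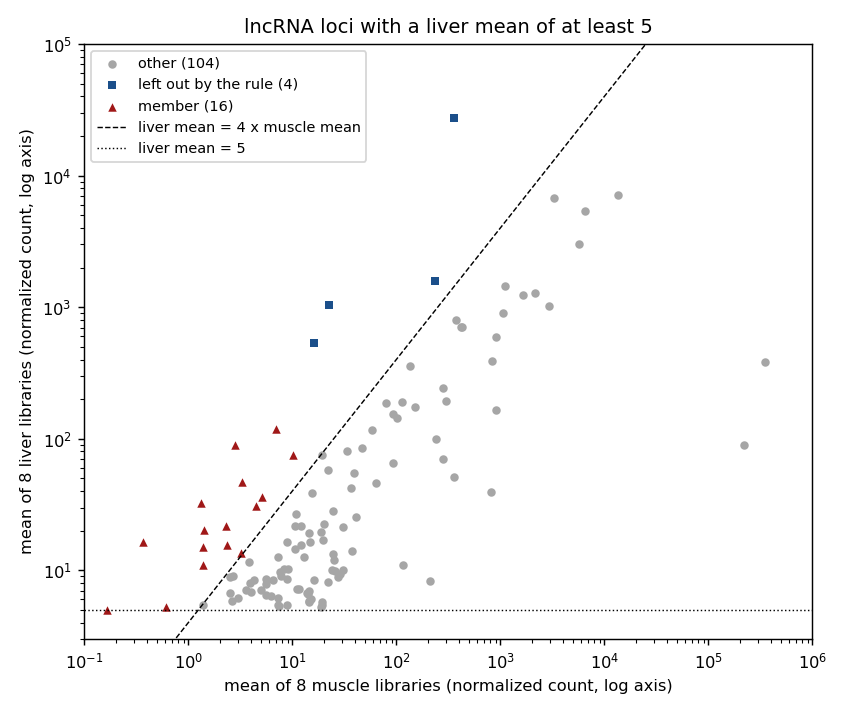
Mean normalized count over 8 livers (vertical) against the mean over 8 muscles (horizontal), both on log axes, for the 124 lncRNA loci with a liver mean of at least 5. Red triangles are the 16 liver-dominant loci, blue squares the 4 left out by name, and grey points the other 104. The dashed line marks a liver mean 4 times the muscle mean and the dotted line a liver mean of 5.

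The tissue pattern was not the same in both treatments. All 16 loci met both limits in the 4 control animals alone, whereas 9 met them in the 4 BPA animals alone. The 7 that did not were LOC101112291, LOC105608205, LOC114117615, LOC105606290, LOC105604609, LOC105610254 and LOC105616153. Each of these had fewer reads summed over the BPA livers than over the control livers, although the BPA livers had more lncRNA reads in all. Because such loci qualified through the control livers, a difference between the treatments is built into them, and their number supports nothing by itself.

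**Figure D2:**
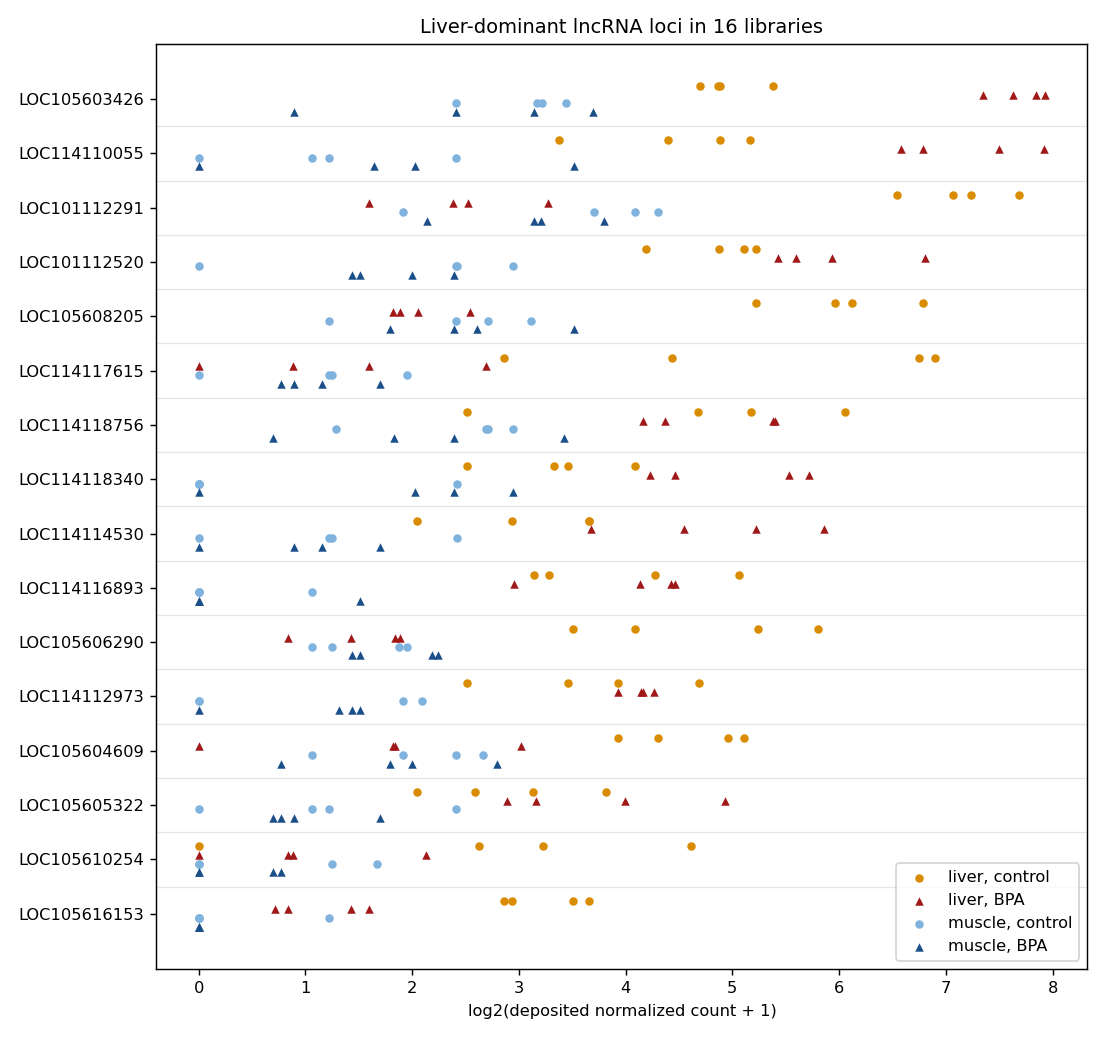
Deposited normalized counts of the 16 loci as log2(value + 1), 1 point per library: orange circles control liver, red triangles BPA liver, light blue circles control muscle, dark blue triangles BPA muscle. Loci are ordered by liver mean; red triangles lie right of all orange circles in 5 loci and left of all of them in 6.

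BPA was compared with control in liver, 4 animals against 4, with limma over all 124 tested lncRNA loci. The limits do not name the treatment, but the choice depended on it in part: the 7 loci that qualified through the control livers include all 6 that were called lower, and the 4 loci left out by name were left out with their response to BPA known. The counts of higher and lower loci are therefore descriptions. Of the 16, 4 rose, 6 fell and 6 did not pass (10 of 16, or 62.5%). Over all 124 loci 35.5% were called, 16.1% higher and 19.4% lower, and among the other 108 loci 34 were called (31.5%). Without control liver 928 the 44 called of all loci became 27, and the 20 higher ones became 10, 12 without BPA liver 910 and 13 without BPA liver 918. The 4 higher among the 16 became 2 without BPA liver 910 or 918. The median log2 fold change was 0.14 over the 16 and 0.06 over all 124, while the median size regardless of sign was 1.92 and 1.10. The BPA livers lay entirely above the control livers in 5 of the 16 (21.0% of all 124) and entirely below in 6 (20.2%). In the remaining 5 the groups overlapped.

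The 2 loci with the highest liver means rose most. LOC105603426, the locus beside BHLHE40 and ITPR1, was at 28.2, 40.8, 28.4 and 25.0 in control livers 902, 908, 924 and 928. In BPA livers 910, 918, 977 and 984 it was at 243, 229, 162 and 196. Every BPA liver lay several-fold above every control liver, and the means were 30.6 ± 6.95 and 208 ± 36.3 (SD, n = 4), a ratio of 6.79. The log2 fold change was 2.73 ± 0.42 (SE, limma, BH-adjusted p = 4.96e-04). The reads behind these values numbered 15 to 28 per control liver and 233 to 757 per BPA liver.

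LOC114110055, next to PLSCR4, had the same order of groups. It was at 9.39, 34.9, 28.4 and 20 in control livers and at 241, 180, 94.7 and 110 in BPA livers, in the same order of animals. Control liver 902 was the lowest and BPA liver 910 the highest, with a wide gap between the groups. The log2 fold change was 2.74 ± 0.52 (SE, limma adjusted p = 0.0022), and the ratio of means was 6.75. Both loci were called under each of 17 alternative settings. Their log2 fold changes were 1.72 to 2.87 for LOC105603426 and 1.75 to 3.31 for LOC114110055.

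LOC114118340 and LOC114114530 rose by less and rested on few reads in the controls. LOC114118340, between MS4A13 and NCAPD3, was at 4.70, 16, 9.05 and 10.0 in control livers and 51.7, 45.1, 21.0 and 17.7 in BPA livers. BPA livers 910 and 918 stood apart from 977 and 984, which lay just above the highest control. The log2 fold change was 1.64 ± 0.49 (SE, limma adjusted p = 0.0203). LOC114114530 was at 3.13, 11.6, 11.6 and 6.67 in control livers and 57.1, 36.4, 22.3 and 11.8 in BPA livers, so BPA liver 984 was level with the highest controls. Its log2 fold change was 1.75 ± 0.54 (SE, limma adjusted p = 0.0233). In the labels' library codes, livers 910 and 918 are 95 and 96 and livers 977 and 984 are 71 and 72. With the code range as a covariate the log2 fold changes were 1.83 and 2.07. That contrast rests on control liver 902, the lowest control for both loci, against BPA livers 977 and 984, so it is no check of the calls.

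The calls of LOC114118340 and LOC114114530 on all 8 livers depended on single libraries. LOC114118340 did not pass without BPA liver 910 or 918 (log2 fold change 1.39 and 1.45, limma adjusted p = 0.0619 and 0.0579, and 0.0128 to 0.2892 over all alternatives). LOC114114530 did not pass without control liver 902 or 928 or BPA liver 910 or 918 (1.41, 1.71, 1.41 and 1.62, limma adjusted p = 0.0660, 0.0599, 0.0754 and 0.0595, and 0.0119 to 0.2538 over all alternatives).

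Among the loci that fell, LOC101112291 on the X chromosome changed most. CHIC1, the gene on one side of it, lies beside the X-inactivation centre in human and mouse, but the table gives the sheep locus no name. It was at 92.3, 150, 133 and 205 in control livers and at 8.66, 4.75, 2.03 and 4.22 in BPA livers. No BPA liver came near a control liver, and the BPA livers were within or below the range of the 8 muscles, 2.76 to 18.7. The means were 145 ± 46.7 and 4.91 ± 2.76 (SD, n = 4), a 29.5-fold ratio, with a log2 fold change of -4.69 ± 0.46 (SE, limma adjusted p = 7.08e-06). Raw reads fell too, from 59 to 123 per control liver to 3 to 27 per BPA liver.

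LOC105608205, which has no entry in the gene table, was at 110, 61.1, 36.2 and 68.4 in control livers and 4.81, 3.16, 2.71 and 2.53 in BPA livers. The groups were again far apart, and the BPA livers lay within the muscle range of 1.33 to 10.4. The log2 fold change was -3.94 ± 0.43 (SE, limma adjusted p = 1.59e-05), with 28 to 70 reads per control liver and 3 to 15 per BPA liver. LOC105606290, which holds the gene listed as ncRNA, was at 54.8, 16, 10.3 and 36.7 in control livers and at 2.57, 0.791, 2.71 and 1.69 in BPA livers. Its control livers differed among themselves by several-fold, with 902 the highest, yet all lay above the BPA livers (log2 fold change -3.16 ± 0.55 SE, limma adjusted p = 0.0012). The ncRNA gene inside it had no row among the deposited miRNAs, snoRNAs or snRNAs, so its part in these reads was not tested.

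LOC114117615 had the largest SD among control livers of the 16 loci. It was at 6.26, 106, 20.7 and 118 in control livers and at 5.45, 0, 2.03 and 0.843 in BPA livers. Control liver 902 was close to BPA liver 910, so the fall rested mainly on controls 908, 924 and 928 (62.9 ± 57.6 against 2.08 ± 2.40, SD, n = 4; log2 fold change -3.94 ± 0.86 SE, limma adjusted p = 0.0037). LOC105604609 was at 18.8, 33.5, 14.2 and 30.0 in control livers and at 2.57, 7.12, 0 and 2.53 in BPA livers, without overlap (-2.91 ± 0.60 SE, limma adjusted p = 0.0030). LOC105616153 was at 6.26, 11.6, 10.3 and 6.67 in control livers and at 0.642, 0.791, 2.03 and 1.69 in BPA livers (-2.10 ± 0.52 SE, limma adjusted p = 0.0083). These last values stand for 4 to 8 reads per control liver and 1 to 3 per BPA liver, and the locus met the filter in 4 of the 8 fits that leave out 1 liver.

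For 4 of the 6 loci that fell (LOC101112291, LOC105608205, LOC105604609 and LOC105616153), each BPA liver had fewer raw reads than each control liver. In deposited values 20.2% of all 124 loci had every BPA liver below every control liver, and no such share is given for raw reads. The 6 were called lower in every fit without 1 of the 8 livers in which they could be tested (highest limma adjusted p = 0.0236, for LOC105616153). For LOC105616153 these were only the 4 fits without a BPA liver. Leaving out a control liver took it below the filter, so its call was not checked against any single control. As these 6 loci were chosen through high control livers, this too is a description.

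The 6 loci that did not pass had these values. LOC101112520, listed as KIAA1586, was at 17.2, 36.4, 33.6 and 28.3 in control livers and at 47.5, 41.9, 60.2 and 110 in BPA livers. Its groups did not overlap, but the log2 fold change of 1.09 ± 0.46 gave a limma adjusted p of 0.0845 (0.0104 to 0.8762 over all alternatives). LOC105605322, placed on the Y chromosome, was at 3.13, 13.1, 7.76 and 5.0 in control livers and at 6.42, 7.91, 14.9 and 29.5 in BPA livers, with overlap (0.85 ± 0.55, adjusted p = 0.2486). LOC105610254 was at 23.5, 0, 5.17 and 8.34 in control livers and at 0, 0.791, 3.38 and 0.843 in BPA livers. Both groups thus included a liver at 0, and the log2 fold change was -1.65 ± 0.92 (limma adjusted p = 0.1730). Without control liver 908, the control at 0, it was -2.52 with an adjusted p of 0.0188 (0.0130 to 0.3308 over all alternatives). LOC114118756, LOC114112973 and LOC114116893 had log2 fold changes of 0.22 ± 0.67, 0.48 ± 0.47 and 0.06 ± 0.53 (SE, limma adjusted p = 0.8334, 0.4628 and 0.9460).

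**Figure D3:**
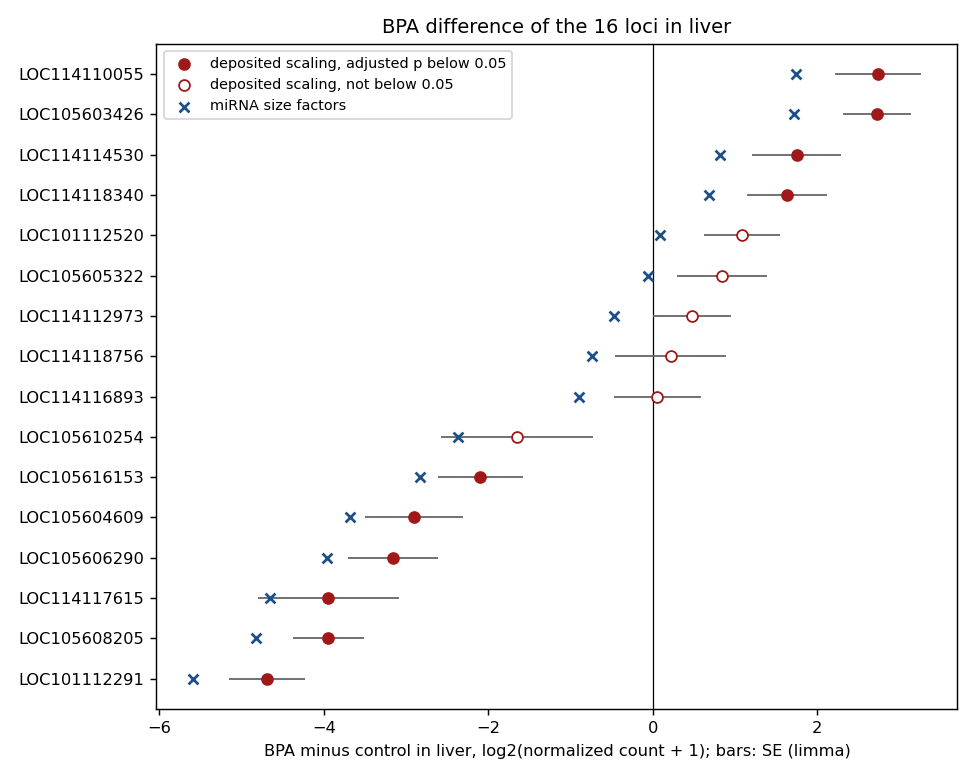
BPA minus control in liver for the 16 loci, on the log2(normalized count + 1) scale. Filled circles passed a limma adjusted p of 0.05, open circles did not, bars are SE, and blue crosses give the same difference with the size factors of the miRNA table. The crosses lie left of the circles in all 16 loci, and the values furthest from 0 are 2.74 for LOC114110055 and -4.69 for LOC101112291.

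The direction of these changes was read against the scale of the table. When the lncRNA reads were scaled by the miRNA size factors, the median log2 fold change of all 124 loci moved from 0.06 to -0.89, and the called ones from 20 higher and 24 lower to 6 and 38. Of the 16 loci 2 then rose and 6 fell. LOC105603426 and LOC114110055 were at 1.72 and 1.75 (limma adjusted p = 0.0083 and 0.0150), still far above that median. LOC114118340 and LOC114114530 were at 0.68 and 0.82 (adjusted p = 0.2892 and 0.2538), and LOC101112291 was at -5.59 (adjusted p = 1.21e-05). All 10 called loci kept their sign under every alternative run, and 6 were also called under every one: LOC105603426, LOC114110055, LOC101112291, LOC105608205, LOC105606290 and LOC105604609. With the range of library codes as a covariate, a contrast that rests on 1 control and 2 BPA livers, 8 of the 16 were higher and 4 lower, and of all 124 loci 35 were higher and 28 lower. LOC114117615 and LOC105616153 were then not called (log2 fold change -1.62 and -1.35, limma adjusted p = 0.3309 and 0.1629). Calls were gained by LOC101112520 (2.18, adjusted p = 0.0104), LOC105605322 (2.41, 0.0190), LOC114112973 (1.70, 0.0348) and LOC114118756 (1.75, 0.0361), whose limma adjusted p reached 0.8762, 0.9241, 0.8484 and 0.9725 under other alternatives.

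Control liver 902, the shallowest library, had the lowest control value for 11 of the 16 loci and the highest for 3, LOC105608205, LOC105606290 and LOC105610254. Control liver 908 had the highest for 10. BPA liver 910, the deepest of the livers, had the highest BPA value for 7 loci, among them both LOC105603426 and LOC101112291, whose group difference went in opposite directions. The part of depth in these orders was not tested.

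LOC114118756 and the snoRNA gene inside it, LOC114118772, had nearly the same reads. snoRNAs guide chemical modification of ribosomal and spliceosomal RNA and are released from the introns of host transcripts. Of 354 reads assigned to the lncRNA locus over 16 libraries, 348 (98.3%) were matched in number by reads assigned to the snoRNA in its own table. The control livers had 3, 45, 19 and 21 locus reads and 3, 44, 19 and 21 snoRNA reads. The BPA livers had 127, 52, 29 and 20 locus reads and 122, 52, 29 and 20 snoRNA reads. The counts were equal in 14 of 16 libraries, all 8 muscles included, and the largest difference was 5 reads. The lncRNA value of this locus thus cannot be told apart from that of the snoRNA, and the 2 rows are not independent measurements.

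**Figure D4:**
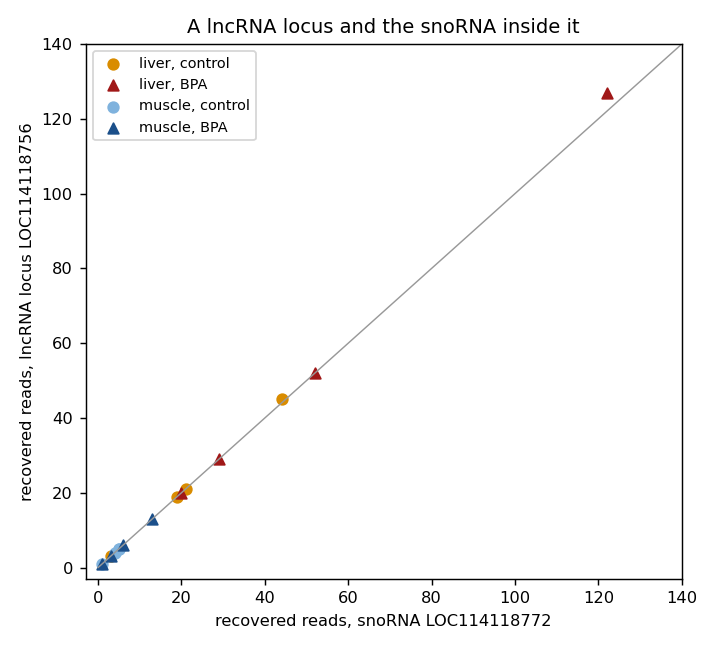
Recovered reads of the lncRNA locus LOC114118756 (vertical) against those of the snoRNA LOC114118772 that lies inside it (horizontal), 1 point per library, with the line of equality. 14 of 16 libraries lie on the line and the highest point is BPA liver 910 at 127 and 122 reads.

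The same 2 rows, scaled in separate tables, gave different pictures. As a lncRNA the locus was at 40.8, 41.1, 19.6 and 16.9 in the BPA livers, where 910 and 918 were well above 977 and 984. As a snoRNA it was at 43.6, 48.1, 41.8 and 34.2, with the 4 livers close together. In control livers the values were 4.70, 65.5, 24.6 and 35.0 as lncRNA and 2.92, 36.7, 20.7 and 22.6 as snoRNA. Control liver 902 was the lowest in both. The nested snRNA of LOC114116893, LOC114117026, had 0 reads in every library. The 171 reads of that locus were thus not matched by any read assigned to this snRNA. They gave 7.83, 8.73, 32.3 and 18.3 in control livers and 20.5, 16.6, 6.77 and 21.1 in BPA livers, with overlap. LOC114112973 was at 4.70, 24.7, 14.2 and 10.0 in control livers and 16.7, 14.2, 18.3 and 16.9 in BPA livers, so the BPA animals lay within the range of the controls.

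In muscle no BPA difference of these loci was called. The filter on low values was met by 3 of the 16 (LOC105603426, LOC101112291 and LOC105608205), and 0 of them passed in limma. The count was also 0 in edgeR, in DESeq2 and at an unadjusted limma p below 0.05. Over all 151 loci tested in muscle 5.3% were called, 3.97% higher and 1.32% lower. LOC105603426 was at 8.01, 9.83, 8.29 and 4.31 in control muscles and 0.851, 4.31, 7.80 and 11.9 in BPA muscles (log2 fold change -0.53 ± 0.57 SE, limma adjusted p = 0.6623). LOC101112291 was at 16, 12, 2.76 and 18.7 in control muscles and at 3.40, 12.9, 7.80 and 8.21 in BPA muscles (-0.43 ± 0.54, adjusted p = 0.7088). LOC105608205 was at 1.33, 7.64, 5.53 and 4.31 and at 5.10, 2.47, 4.25 and 10.4 (0.22 ± 0.52, adjusted p = 0.8434). In all 16 loci the muscle groups overlapped, but 10 of them were at 0 in at least 1 muscle, and no share over all loci is given. At 1 to 21 reads per muscle for these 3, small differences were not detectable.

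Liver and muscle differed in their BPA effect for 6 of the 14 loci that could be tested over all 16 libraries (limma interaction, muscle effect minus liver effect). It was above 0 for 5 and below 0 for 1. The 5 above 0 are among the 7 loci that met the limits through high control livers and low muscles, values that the interaction also uses, so their sign is partly set by the choice and is given as a description. The 6 stand against 28.8% of all 146 loci called, 17.1% above and 11.6% below 0. That split of 25 against 17 loci was 32 against 2 in edgeR, 22 against 29 in DESeq2, 35 against 1 with miRNA size factors and 24 against 31 after rescaling over both tissues. The median interaction of all loci was -0.17, and 0.72 with miRNA size factors, while the 6 kept their signs. The 42 loci called became 22 without sheep 928 and 20 without sheep 977, and the 1 of the 16 below 0 became 3 without sheep 924 or 984. LOC101112291 and LOC105608205 had interactions of 4.26 ± 0.72 and 4.16 ± 0.65 (SE, limma adjusted p = 4.08e-04 and 1.65e-04). LOC105606290, LOC114117615 and LOC105604609 were at 3.47 ± 0.67, 3.96 ± 1.07 and 2.73 ± 0.81 (limma adjusted p = 0.0015, 0.0150 and 0.0195). LOC105603426 was at -3.26 ± 0.66 (adjusted p = 0.0020). LOC105606290, LOC114117615 and LOC105604609 did not meet the filter in muscle alone. They had 21, 11 and 26 reads over the 8 muscles together. A fall of the size in liver could not have shown at such muscle levels, so their interactions mainly restate the liver fall. LOC101112291 and LOC105608205 had control muscle means of 12.4 and 4.70. Even a fall to 0 from there would be smaller than their liver fall on the log2(value + 1) scale. Their interactions are therefore limited in the same way, though a smaller fall could have shown.

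The other 8 loci did not pass the interaction. LOC114110055, called in liver, was at -2.12 ± 0.90 (limma adjusted p = 0.0805, 0.0070 to 0.6098 over all alternatives) and passed without sheep 924 or 984 (-2.65 and -2.83, adjusted p = 0.0414 and 0.0359). LOC114114530 was at -2.04 ± 0.80 (adjusted p = 0.0619, 0.0228 to 0.3659 over all alternatives) and passed without sheep 984 (-2.68, adjusted p = 0.0339). LOC101112520 was at -1.20 ± 0.74 (adjusted p = 0.2446, 0.0253 to 0.9551 over all alternatives) and passed without sheep 924 (-1.94, adjusted p = 0.0253). LOC114118340 was at -0.40 ± 0.91 (adjusted p = 0.7725). Of the called ones, LOC105604609 did not pass without sheep 908, 928 or 910 (2.24, 2.74 and 2.47, limma adjusted p = 0.0634, 0.0505 and 0.0503, and 0.0029 to 0.0697 over all alternatives).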

How the data were processed

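Small RNA was sequenced from 8 livers and 8 muscles, in 4 groups of 4. Library preparation used NEBNext small RNA reagents, per the labels' protocols. Tools named in the submitters' processing notes, with no role, are STAR 2.6.0c, featureCounts 1.6.1 and cutadapt 3.2. The genome build (not given in the sources used here) was not needed for these values. Each deposited signal is a normalized count: the reads of a locus over a size factor of that library. Whole reads were recovered for 100% of lncRNA values (tolerance 0.001). All replicate pairs differed by more than sampling noise, with a chi-square of at least 6.97 times its degrees of freedom.

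The test was limma 3.58.1 (R 4.3.3) with a trend on log2(deposited value + 1), two-sided, over lncRNA loci with a mean of at least 5 in the libraries of the fit. P-values were Benjamini-Hochberg adjusted over all loci tested, with a threshold of 0.05. Fold changes on this scale understate changes of low loci. edgeR 4.0.16 and DESeq2 1.42.0 on recovered reads, other pseudocounts, filters and scalings, and leaving out libraries were alternatives. The fit was run on simulated reads with a fixed spread and the same base level in all livers. That setting is simpler than these libraries, so it checks the code and not the calls. Size factors were set within each tissue, so values of the tissues share no scale. Compared with 1 common scale, deposited muscle values stood 0.40 log2 units higher relative to liver.

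Each sheep number marks 1 animal, so livers and muscles are paired. Deviations from the group means correlated by -0.27 to 0.21 between liver and muscle of 1 animal, across 146 loci, and own muscle was closest in 1 of 8 animals. The loci and lists were chosen with earlier results of these data known. The rule for named loci took the 10 with the highest liver means, up to 12 called ones per comparison by smallest p, 3 on each side of each limit, and any with identical rows or a miRNA gene inside.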

Additional observations from a re-analysis of the deposited data

Results flagged for a closer look

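The BPA effect differed between liver and muscle, by the limma interaction, for 6 of the 14 loci tested, where 28.8% of all 146 loci were called: LOC101112291 (4.26), LOC105608205 (4.16), LOC114117615 (3.96), LOC105606290 (3.47), LOC105604609 (2.73) and LOC105603426 (-3.26), all as muscle effect minus liver effect in log2 units. The 5 values above 0 belong to loci that were chosen through high control livers and low muscles. In all 5 muscle was too near 0 for a fall as large as that in liver to show. For LOC101112291 and LOC105608205, with control muscle means of 12.4 and 4.70, a smaller fall could have shown.

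In 63 groups of 4 libraries, 5 had 1 library far from the other 3. The chance rate of about 1 in 20 groups holds for continuous values and does not apply here: all 5 were muscles with 1 to 4 reads, and in 4 of them the other 3 libraries were at 0, where a single read is enough. LOC114118340 was at 4.37 in control muscle 908 and at 0 in the other control muscles. LOC114116893 was at 1.09 in control muscle 908 and at 1.85 in BPA muscle 918, with the others of each group at 0. LOC105605322 was at 2.24 in BPA muscle 984, against 0.616 to 0.851, and LOC105616153 at 1.33 in control muscle 902, against 0.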

How the results depend on the processing

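Of 62 totals under alternative settings (loci called among the 16, or loci that met the limits), 0 moved by over 1.5 times, but their splits and the counts over all loci did. In liver the 4 higher became 2 with no filter or with miRNA size factors and 8 with the code covariate. In the interaction the 1 below 0 became 3 with a pseudocount of 5, in DESeq2 and after rescaling, and the 42 of all loci became 20 with no filter. Called loci numbered 8 to 10 in liver, 0 in muscle and 5 to 8 in the interaction when 1 replicate was left out, and the rule found 14 to 20 loci. In muscle few loci met the filter, so its totals of 0 say little about stability. At a mean of at least 10 the interaction total of 6 became 4, with 9 loci tested, at the edge of the 1.5 limit. With values rescaled over both tissues 19 loci met the rule, 15 of them shared, and with medians 12 did. With the replicate block of animals 6 loci passed the interaction, and the block changed no call of the 14. Of 554 values of single loci under alternatives, 493 kept their direction and call, 16 lost the call, 16 gained it and 29 changed sign, each of these 29 in a locus not called in that comparison.

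In liver, miRNA size factors turned LOC114112973 to -0.46, LOC114116893 to -0.90, LOC114118756 to -0.74 and LOC105605322 to -0.058. edgeR and DESeq2 gave -0.23 and -0.12 for LOC114116893 and -0.26 and -0.15 for LOC114118756. Leaving out 1 liver gave -0.21 to 0.43 for LOC114116893 (-0.16 without control 908, -0.09 without BPA 910, -0.10 without BPA 984) and -0.47 to 0.71 for LOC114118756. In muscle, LOC105608205 was at -0.16 (without control 902) to 0.48 and LOC105603426 at -0.91 to 0.022 (without BPA 910). In the interaction, miRNA size factors gave 0.56 for LOC114112973, 0.59 for LOC114118340, 0.57 for LOC114118756 and 0.0019 for LOC105605322, edgeR 0.14 for LOC114118340 and 0.47 for LOC114118756, and rescaling over both tissues -0.20 for LOC114116893. Without 1 animal LOC114116893 was at -0.41 to 0.54 (-0.15, -0.28 and -0.17 without 928, 918 and 977), LOC114118340 at -1.02 to 0.041 and LOC114118756 at -1.21 to 0.33 (0.11 without 918). The cause of these turns was not tested. Single reads limit low values: 1 read is worth over 1 in each control library.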
